A study of Mus musculus with 24 samples.

Results

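The comparison described here is the effect of a neural crest deletion of Tgfbr2 on gene expression in the distal maxilla of mouse embryos at embryonic day 13.5. Its members are the 6 arrays whose titles name the distal maxilla, 3 from mutant and 3 from control embryos, out of 24 arrays in the series. The mutants were Wnt1cre;Tgfbr2fl/fl, obtained by mating Wnt1cre;Tgfbr2fl/+ with Tgfbr2fl/fl mice, and were told apart by their cleft palate and skull vault defect. The controls were littermates, and the labels give neither their Cre status nor their floxed alleles. All groups carry the background label C57B6. The other 18 arrays hold the same 2 genotypes in the proximal maxilla, the distal mandible and the proximal mandible, with 3 arrays in each of the 8 groups. Total RNA was hybridised to Affymetrix mouse arrays, and every level below is a deposited log2 intensity, so that a difference of 1 is a 2-fold change. The sources used here do not say whether the 3 arrays of a group came from separate embryos or from pools. The p-values below therefore cover the variation among these arrays alone, some of which may be technical, and the number of arrays limits the precision of each value.

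Transforming growth factor beta ligands bind the type II receptor encoded by Tgfbr2, which recruits and phosphorylates the type I receptor, and this complex phosphorylates the SMAD2 and SMAD3 proteins that act in the nucleus. In the upper jaw most of the connective tissue, cartilage and bone derives from cranial neural crest, whereas the epithelium, muscle fibres, endothelium and blood cells do not. Wnt1-Cre acts in the neural crest and in the dorsal neural tube, so the receptor gene is deleted in the first set of tissues and remains in the others.

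Mutant replicate 1 stood apart from the other 5 distal maxilla arrays. It was the highest of the 6 for 21 of 24 cartilage genes, 13 of 18 sensory neuron genes and 6 of 8 frontonasal genes, and the lowest for 29 of 34 skeletal muscle genes, whereas over all genes tested it was the highest for 29.0% and the lowest for 17.4%. Neurod1, a transcription factor of neuronal precursors, measured 10.16, 4.70 and 4.83 in mutant replicates 1 to 3, against 5.18, 5.09 and 5.10 in the controls. For most genes described below, a call that was lost or gained without this array is named as such. In the macrophage, cell cycle and hypoxia lists some lost calls are given only as a count. The difference between the 3' and 5' Gapdh control probe sets, which grows when RNA is degraded, was 0.65, 0.04 and 0.77 in the mutant arrays, against 0.05, 0.11 and 0.09 in the control arrays. Mutant replicates 1 and 3 thus lay above all controls and mutant replicate 2 did not. The RNA of the inactive X chromosome, Xist, was high in mutant replicates 2 and 3 (13.48 and 13.34) and in control replicates 2 and 3 (13.53 and 13.57), and low in replicate 1 of either genotype. Kdm5d, a Y-linked gene, measured 10.38, 9.03 and 9.27 in the mutant arrays, against 10.14, 3.98 and 4.06 in the control arrays, so mutant replicates 2 and 3 held both Xist and Y-linked RNA. Arrays correlated at r = 0.970 to 0.984 among mutants and 0.991 to 0.994 among controls.

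The tissue label was checked against regional markers in the control arrays. Hand2, a transcription factor of the mandibular arch, averaged 8.14 ± 0.531 in distal maxilla (SD, n = 3), against 13.30 in distal mandible. Barx1 averaged 11.79 in distal maxilla and 8.53 in distal mandible, and Nr2f1 12.07 and 9.56. Both were also high in proximal mandible (11.77 and 11.90), so they set distal maxilla apart from distal mandible only. Meox2 behaved likewise, at 11.69 in distal maxilla, 8.85 in distal mandible and 11.19 in proximal mandible. Alx1 and Pax3 were lower in distal maxilla (9.47 and 9.46) than in distal mandible (12.01 and 11.73). Dlx5, Dlx6 and Lhx8 did not separate these 2 distal regions in that way. Dlx5 and Dlx6, mandibular identity genes, averaged 10.85 and 9.43 in distal maxilla, against 10.64 and 9.35 in distal mandible. Lhx8 averaged 11.32 in distal maxilla and 11.84 in distal mandible. Genes of jaw mesenchyme were high in distal maxilla, with 13.34 for Prrx1, 12.30 for Twist1 and 12.51 for Shox2, and the epithelial keratin gene Krt14 averaged 12.05.

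The deletion was accompanied by many small changes in distal maxilla. Of 13850 genes tested, 980 (7.08%) passed an adjusted p under 0.05 in limma, of which 418 (3.02%) were higher and 562 (4.06%) lower in mutants. Only 30 of the 980 differed more than 2-fold, 12 upwards and 18 downwards, while 854 differed by less than 1.5-fold, and the median size of a called difference was 0.34. The mutant and control arrays did not overlap for 962 of the 980, beside 3305 genes (23.9%) over all genes tested. The smallest adjusted p belonged to H2az2, a histone H2A variant gene named here after its value was seen, which measured 13.04, 12.96 and 12.80 in mutants, against 13.67, 13.69 and 13.67 in controls. Its difference was -0.74 ± 0.064 (SE; limma adjusted p 9.22e-06). Every called gene kept its sign when any of the 6 arrays was left out in turn. For the 962 without overlap the sign could not change, so this is no check on them. Of the 980, 216 kept their call in all 6 of those fits, 78 higher and 138 lower. Fitted to the 6 distal maxilla arrays alone, limma called 0 genes (smallest adjusted p 0.178), with 2059 at an unadjusted p under 0.05 compared with 3120 in the fit to 24 arrays. Each array moved the count by over 1.5 times. It was 491, 1692 and 550 without mutant replicates 1, 2 and 3, and 421, 445 and 289 without control replicates 1, 2 and 3. Without both mutant replicates 1 and 3 it was 71.

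**Figure D1:**
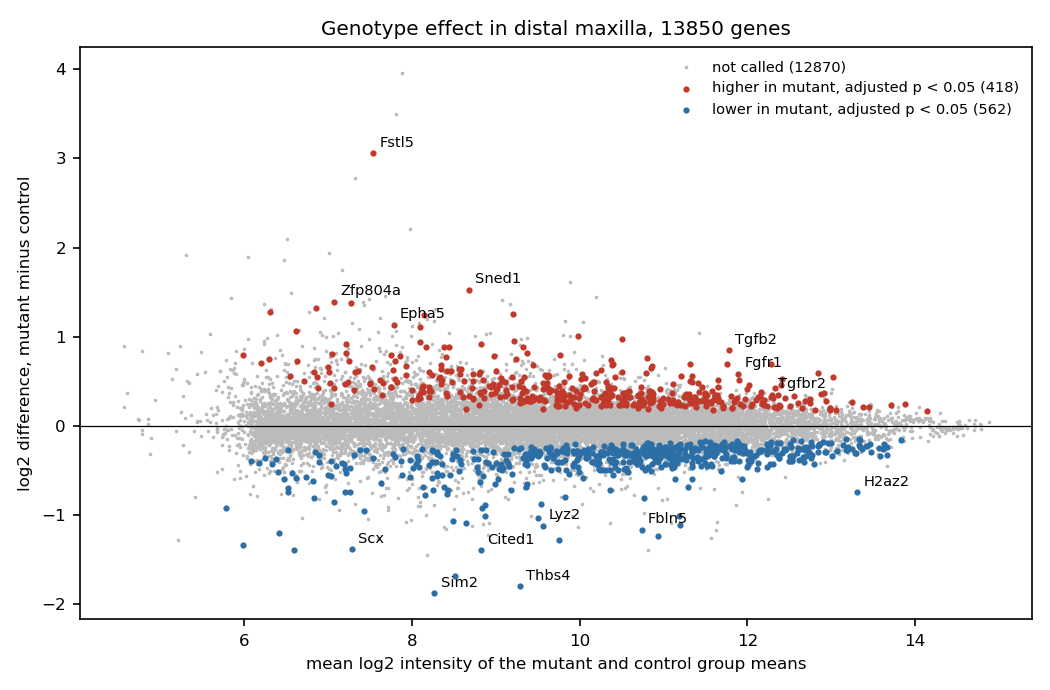
Log2 difference between mutant and control distal maxilla (y axis) against the mean of the 2 group means in log2 intensity (x axis), with 1 point per gene tested. The 418 genes called higher are red, the 562 called lower are blue, and most coloured points lie within 1 log2 unit of 0.

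Tgfbr2 itself was not lower in mutants. It measured 12.20, 12.54 and 12.68 in mutant arrays, against 12.05, 12.09 and 12.20 in control arrays, a difference of 0.36 ± 0.108 that did not pass the threshold (limma adjusted p 0.0523). The lowest mutant and the highest control array had the same value to 2 decimals. Without mutant replicate 1 the difference was 0.49 (adjusted p 0.0149), and a dimmer probe set of the gene differed by -0.12. No source used here places the probes inside or outside the floxed segment, and the level of Tgfbr2 is therefore no check on genotype.

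Among genes that make, hold or transmit TGF-beta, the members that passed were higher in mutants. The counts in these lists stand beside 3.02% of all genes called higher and 4.06% called lower. Of 6 ligand genes tested, Tgfb2 rose, and none of the others was called. Tgfb2 measured 12.34, 12.13 and 12.13 in mutants, against 11.62, 11.32 and 11.13 in controls, so that every mutant array lay above every control array. The difference was 0.85 ± 0.112, a 1.80-fold change (limma adjusted p 0.000796), and without mutant replicate 1 it was 0.78 (0.00367). None of 8 receptor and co-receptor genes passed. Their median difference was 0.15, beside 0.01 over all genes, and Tgfbr3, which encodes betaglycan, a co-receptor that presents ligand, differed by 0.31 ± 0.135 (adjusted p 0.170). With mutant replicate 1 left out, 2 genes of the list were called higher, with Tgfbr3 at 0.49 (adjusted p 0.0370). Tgfbr1, the type I receptor gene, differed by 0.15 in its brighter probe set and by -0.59 in a dimmer one.

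Of 11 genes for latency and extracellular control, 2 rose. Ltbp3, which encodes a protein that anchors latent TGF-beta in the matrix, measured 11.73, 11.53 and 11.76 in mutants, against 11.27, 11.32 and 11.36 in controls. The groups did not overlap, but without mutant replicate 1 Ltbp3 did not pass (adjusted p 0.0698), and it was called in 1 of the 6 fits with 1 array left out. Itgav, the alpha v integrin subunit that takes part in activating latent TGF-beta, differed by 0.32 ± 0.0694 (limma adjusted p 0.0114), while a dimmer probe set of it differed by -0.15. Of 13 SMAD and intracellular regulator genes, only Smad7 was called. Smad7 encodes an inhibitory SMAD that is itself induced by the pathway. It measured 10.05, 10.03 and 9.86 in mutants, against 9.63, 9.72 and 9.42 in controls, with no overlap (difference 0.39 ± 0.0786, adjusted p 0.00759). Smad3 and Skil were among the 12 that did not pass.

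Of 29 genes known to respond to TGF-beta in various cell types, 2 rose and 2 fell, with a median difference of 0.05. Fbln5, which encodes fibulin 5, a matrix protein needed to assemble elastic fibres, measured 10.37, 10.02 and 10.09 in mutants, against 11.20, 11.19 and 11.57 in controls. Every mutant array lay below every control array, and the difference was -1.16 ± 0.129 (limma adjusted p 0.000235). Without mutant replicate 1 it was -1.27, and with mutant replicate 2 as the only mutant -1.30, and both passed. Snai1, a transcriptional repressor active in neural crest and mesenchyme, rose by 0.61 ± 0.152, and this did not pass without mutant replicate 1 (0.44, adjusted p 0.105). Fn1, Col1a1, Col1a2, Postn and Tgfbi, matrix genes of the same list, were not called.

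**Figure D2:**
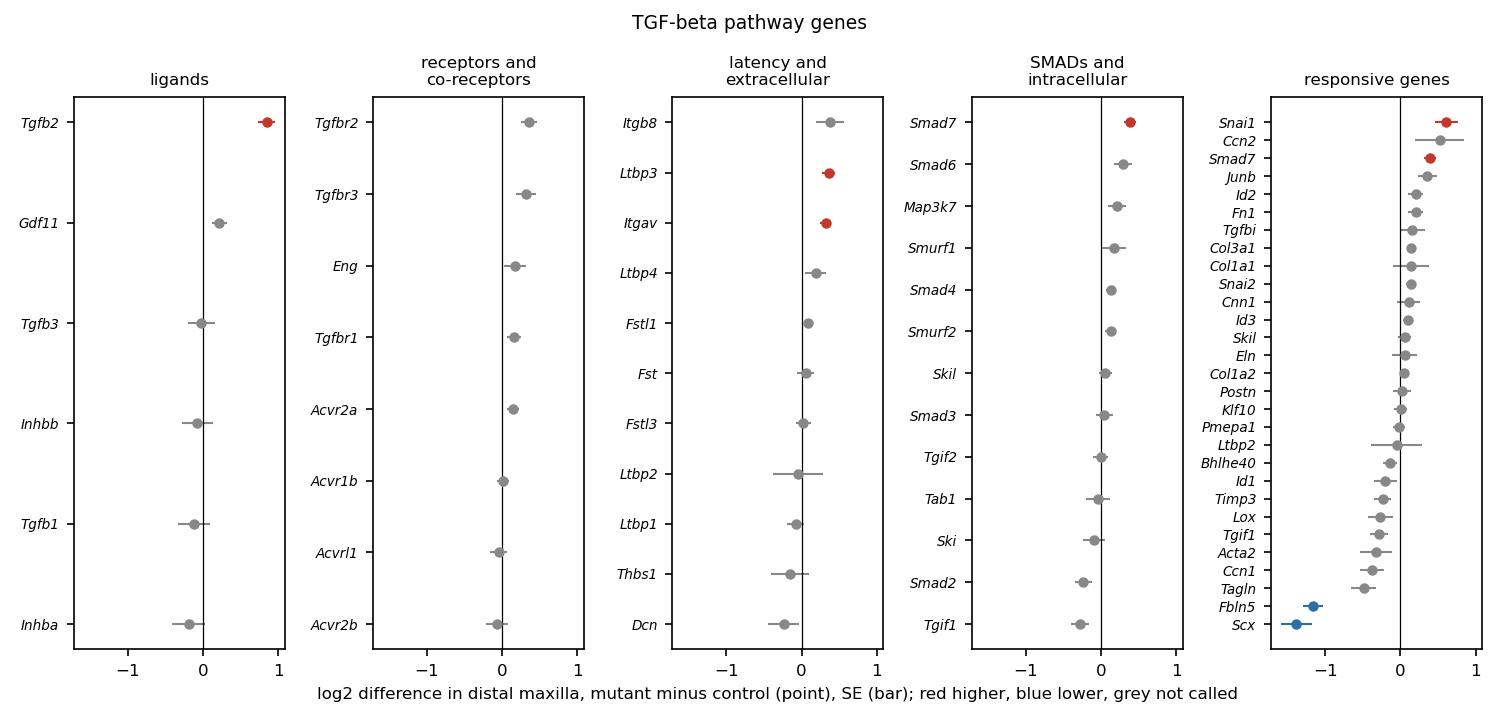
Log2 difference between mutant and control distal maxilla for TGF-beta pathway genes, with 1 panel per role. Points are differences and bars are standard errors from limma, and colour marks called genes. Tgfb2 at 0.85 and the pair Fbln5 and Scx at -1.16 and -1.38 lie farthest from 0.

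The promoters of Tgfb2 and Fbln5 are shown because these genes changed in opposite directions and both windows hold the core of the SMAD motif, CAGAC, searched on both strands. Each window runs from 250 bases before to 50 bases after a start of the gene in RefSeq (GRCm38.p6). It reads 5′ to 3′ on the gene's own strand, with the motif in capitals. Fbln5 had 2 such windows, and the first window of each gene was used here and for the shares below. Tgfb2 lies on the minus strand at chr1:186705940-186706239 and Fbln5 on the minus strand at chr12:101819070-101819369.
Tgfb2: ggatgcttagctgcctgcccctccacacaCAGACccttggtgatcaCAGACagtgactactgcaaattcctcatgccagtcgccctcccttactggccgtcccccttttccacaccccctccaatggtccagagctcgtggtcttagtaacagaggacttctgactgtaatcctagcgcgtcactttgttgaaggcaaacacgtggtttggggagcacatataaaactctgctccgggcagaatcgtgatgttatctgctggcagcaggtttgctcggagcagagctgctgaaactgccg
Fbln5: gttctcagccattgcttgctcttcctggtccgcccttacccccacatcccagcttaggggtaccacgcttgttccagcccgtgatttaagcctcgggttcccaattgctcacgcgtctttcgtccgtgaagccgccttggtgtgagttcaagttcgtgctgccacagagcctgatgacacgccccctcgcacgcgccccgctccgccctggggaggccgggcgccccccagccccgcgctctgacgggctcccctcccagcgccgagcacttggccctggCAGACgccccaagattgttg
The motif occurs 2 times in the Tgfb2 window and 1 time in the Fbln5 window. It was present in 43.8% of 320 promoters of genes called higher and 46.7% of 469 promoters of genes called lower, compared with 47.8% of the 11047 promoters of genes tested. A match is a description of these letters and not evidence of binding.

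The 15 largest rises among called genes without overlap included several matrix and cell surface genes. Epha5, an Eph receptor tyrosine kinase, measured 8.11, 8.49 and 8.45 in mutants, against 7.25, 7.35 and 7.05 in controls. Vit, which encodes the matrix protein vitrin, measured 7.48, 7.66 and 7.42 in mutants, against 6.66, 5.95 and 5.99 in controls. In both genes the mutant arrays lay close together and well above the controls. The differences were 1.13 ± 0.163 for Epha5 (limma adjusted p 0.00111) and 1.32 ± 0.212 for Vit (0.00214), and both kept their calls in every fit with 1 array left out. Zfp804a, a zinc finger gene, measured 7.17, 8.13 and 8.001 in mutants, against 6.51, 6.28 and 6.33 in controls. Its rise of 1.39 ± 0.260 was larger without mutant replicate 1, at 1.69. Ccn3, a matricellular protein gene of the CCN family, measured 8.87, 8.47 and 8.62 in mutants and 7.35, 7.44 and 7.83 in controls (adjusted p 0.00827). Sned1, which encodes a secreted matrix protein, measured 9.99, 8.52 and 9.83 in mutants, against 7.63, 7.60 and 8.52 in controls. Its mutant replicate 2 and control replicate 3 were equal to 2 decimals, and without mutant replicate 1 the rise of 1.53 became 1.26 and lost its call (adjusted p 0.0634).

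Fstl5, a follistatin-like gene, had the largest difference of the 15, and that size rested on mutant replicate 1. It measured 11.32, 7.81 and 8.09 in mutants, against 5.59, 6.47 and 5.98 in controls, a difference of 3.06 ± 0.866 (limma adjusted p 0.0394). All 3 mutant arrays lay above all controls, but without replicate 1 the difference was 1.94 and did not pass (adjusted p 0.187). Tnfrsf11b, which encodes osteoprotegerin, the decoy receptor that restrains osteoclast formation, was also uneven, with 7.07, 7.83 and 5.95 in mutants and 5.76, 5.82 and 5.45 in controls. Its difference of 1.27 lost its call without mutant replicate 1 (1.21, adjusted p 0.0819). Glis3, a zinc finger transcription factor gene, rose by 1.25 ± 0.273 (adjusted p 0.0116) and kept its call without that array. The enamel matrix gene Ambn, the anion transporter gene Slc26a7, the secreted protein gene Lgi2, the transcription factor gene Sox21, the carbonic anhydrase-related gene Car10, the actin regulator gene Phactr1 and the noncoding Cep83os made up the rest, with differences of 0.94 to 1.38. Of these 7, Slc26a7 and Cep83os kept their calls without mutant replicate 1.

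Among the 15 largest falls were a tendon regulator, a palate regulator and 4 genes of myeloid cells. Scx, which encodes scleraxis, the transcription factor that marks tendon progenitors, measured 6.52, 6.61 and 6.64 in mutants, against 7.70, 7.93 and 8.29 in controls. Cited1, a transcriptional co-regulator gene, measured 8.02, 8.09 and 8.27 in mutants, against 9.22, 9.60 and 9.74 in controls. In both genes the mutant arrays were nearly equal and lay well below the lowest control. Scx fell by 1.38 ± 0.209 (limma adjusted p 0.00152) and Cited1 fell by 1.39 ± 0.162 (0.000299), and without mutant replicate 1 the falls were -1.35 and -1.34. Sim2, a transcription factor gene whose loss in mice causes a cleft palate, measured 7.13, 7.02 and 7.84 in mutants, against 8.46, 9.16 and 9.996 in controls. The groups were apart although the controls spread widely, and the difference of -1.87 ± 0.436 (adjusted p 0.0163) became -1.78 without mutant replicate 1 (0.0547). Gas2, which encodes a protein that binds the actin cytoskeleton, measured 10.38, 10.85 and 10.70 in mutants, against 11.68, 11.68 and 11.90 in controls, with no overlap (-1.11 ± 0.1499, adjusted p 0.000810). Otor, a secreted protein gene of the MIA family, fell by 1.23 ± 0.253 and kept its call without mutant replicate 1.

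Genes of myeloid cells among the 15 falls were Clec4a3, Lyz2, Tlr1 and Mpo. Clec4a3, a C-type lectin gene of myeloid cells, measured 4.98, 5.52 and 5.44 in mutants, against 6.76, 6.81 and 6.38 in controls. Lyz2, the lysozyme gene of macrophages, measured 8.45, 9.25 and 9.30 in mutants, against 9.79, 10.25 and 10.30 in controls. Both were lower on every mutant array, mutant replicate 1 was the lowest for both, and both passed without it (-1.16 and -0.84). Mpo, the neutrophil peroxidase gene, fell by 1.20 ± 0.239 (limma adjusted p 0.00742), and Tlr1, a receptor for bacterial lipopeptides, fell by 1.39 ± 0.342 (0.0207) and did not pass without mutant replicate 1 (0.0829). For Clec4a3, Mpo and Tlr1 all 3 mutant arrays lay below 6.30, the 40th percentile of all values, and the controls above it. These genes thus exceeded the filter level in distal maxilla only on the control arrays, and the sizes of their differences are uncertain. Among the largest rises, Tnfrsf11b and Car10 exceeded that level in distal maxilla only on mutant arrays, and the sizes of their differences are also uncertain. For Tnfrsf11b mutant replicate 3 (5.95) lay below it as well. Of the 980 called genes, 14 had their lower group wholly under that level. In bulk tissue, fewer cells of a type and less RNA per cell cannot be told apart. Tceal7, Mrln and Fabp3, of which Mrln encodes a micropeptide of muscle, had differences of -1.07 to -1.68 and lost their calls without mutant replicate 1. For 1810014B01Rik, a gene without an assigned function here, the difference was -1.28 in its brightest probe set and did not pass without mutant replicate 1 (adjusted p 0.0697), and its 3 other bright probe sets differed by -0.23, 0.00 and 0.06. Over the 30 named rises and falls, 16 kept their call without mutant replicate 1. All 30 kept their direction in that fit and with mutant replicate 2 as the only mutant. That was fixed in advance, because these genes were chosen for arrays that do not overlap.

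**Figure D3:**
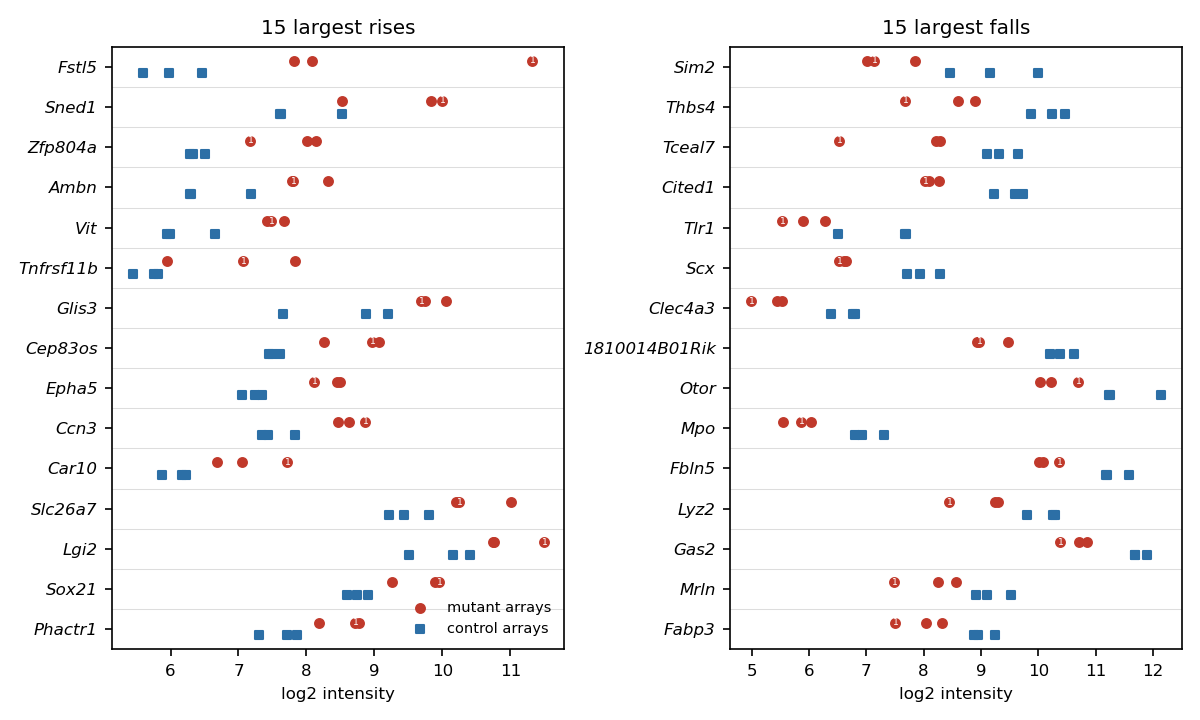
Log2 intensity of the 15 largest rises and 15 largest falls on each distal maxilla array. Red circles are the 3 mutant arrays, with replicate 1 marked by its number, and blue squares are the 3 control arrays. Replicate 1 lies far from the other mutants for Fstl5 and Tceal7 and close to them for Vit, Scx and Cited1.

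Tendon, elastic fibre and stromal matrix genes did not move as blocks. Over all genes tested, 3.02% were called higher and 4.06% lower. Of 20 tendon genes tested, 3 fell and 1 rose, with a median difference of -0.28 that was -0.07 without mutant replicate 1. Thbs4, a thrombospondin of tendon matrix, measured 7.67, 8.60 and 8.90 in mutants, against 9.87, 10.24 and 10.47 in controls. All mutant arrays lay below all controls, and mutant replicate 1 was the lowest (difference -1.80 ± 0.372, limma adjusted p 0.00873, and -1.44 without that array, 0.0442). Mkx, the Mohawk homeobox gene of tendon differentiation, fell by 0.65 ± 0.171 (adjusted p 0.0301). Col12a1, a collagen of tendon and other dense connective tissue, rose by 0.46 in its brighter probe set, did not pass without mutant replicate 1 (adjusted p 0.0563), and differed by -0.25 in another probe set.

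Of 16 elastic fibre genes, Fbln5 and Emilin1 fell and Efemp1 rose. Emilin1, a glycoprotein of elastic fibres, measured 11.23, 10.94 and 11.23 in mutants, against 11.49, 11.53 and 11.63 in controls. Efemp1, which encodes fibulin 3, measured 12.01, 13.02 and 12.84 in mutants, against 12.07, 11.96 and 11.78 in controls, so mutant replicates 2 and 3 lay above the controls and replicate 1 among them. The difference was 0.69 ± 0.181 (limma adjusted p 0.0282) and 1.00 without replicate 1 (0.00172). Fbn2, the fibrillin gene of embryonic microfibrils, was higher on every mutant array but missed the threshold (0.41 ± 0.126, adjusted p 0.0545).

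Of 44 stromal collagen and matrix genes, 4 rose and 1 fell, and the median difference was 0.13. Col6a3, a chain of the beaded-filament collagen VI, measured 12.999, 13.17 and 13.24 in mutants, against 12.60, 12.44 and 12.59 in controls. It was higher on every mutant array (0.59 ± 0.0962, limma adjusted p 0.00241) and passed without mutant replicate 1. The other calls were Vit, Sned1 and Col12a1 upwards and Thbs4 downwards. Of 21 basement membrane genes, Nid1, Col4a1 and Lama2 rose by 0.37 to 0.55, and Col4a6 fell by 0.47. Nid1, which links laminin to collagen IV, kept its call in all 6 fits with 1 array left out. The other members named did not pass without mutant replicate 1. A dimmer probe set of Nid1 differed by 0.01, and with the mean of its probe sets Nid1 differed by 0.14 (limma adjusted p 0.709). The other probe set of Col4a6 differed by -0.02.

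Signalling lists other than TGF-beta each held between 1 and 4 called genes, beside 3.02% of all genes called higher and 4.06% called lower. Of 18 Eph and ephrin genes, Epha5, Epha7 and Epha2 rose and none fell, with a median difference of 0.27. Epha7 measured 10.89, 11.23 and 11.13 in mutants, against 10.56, 10.73 and 10.19 in controls, while a dimmer probe set of it differed by -0.25. Epha5 and Epha7 were called without mutant replicate 1 and Epha2 was not (adjusted p 0.158). Efnb1, the ephrin B1 gene, narrowly missed the threshold (0.40 ± 0.120, limma adjusted p 0.0509). Of 18 FGF pathway genes, Fgfr1 and the feedback inhibitor genes Spry4 and Spred1 rose. Fgfr1, a receptor tyrosine kinase for fibroblast growth factors, measured 12.22, 12.21 and 12.13 in mutants, against 11.64, 11.63 and 11.52 in controls. The arrays of each genotype lay close together and the groups were far apart (0.59 ± 0.0696, adjusted p 0.000300), although a dimmer probe set differed by -0.18. Spry4 and Spred1 rose by 0.34 and 0.28 and did not pass without mutant replicate 1, and a dim probe set of Spry4 differed by -0.08.

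Of 34 WNT pathway genes, 3 rose and 1 fell. Wnt5a, a ligand that acts mainly outside the beta-catenin route, measured 12.81, 12.82 and 12.42 in mutants, against 12.25, 12.20 and 12.02 in controls. Nkd1, an inhibitor that WNT signalling induces, measured 9.72, 10.21 and 9.70 in mutants, against 9.40, 9.32 and 9.21 in controls. Neither gene overlapped between genotypes, and of these 4 genes Nkd1 alone passed without mutant replicate 1 (0.64, limma adjusted p 0.0362). The receptor gene Fzd2 rose by 0.42 and the secreted inhibitor gene Sfrp4 fell by 1.01 (adjusted p 0.0435). Of 14 Notch genes, Notch4, Notch2 and Hey2 rose. Hey2, a target of Notch, measured 9.25, 10.50 and 9.54 in mutants, against 8.87, 8.98 and 8.78 in controls, and mutant replicate 2 stood highest (0.88 ± 0.252, adjusted p 0.0417). Of the 3, Hey2 alone was called without mutant replicate 1, and the adjusted p was 0.136 for Notch4 and 0.198 for Notch2.

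In the hedgehog list 15 of 17 genes had a difference above 0, beside 52.8% of all genes, with a median of 0.20. Only Gli2, a transcription factor of the pathway, was called (0.24 ± 0.0618, limma adjusted p 0.0256). It did not pass without mutant replicate 1 (0.20, adjusted p 0.105), which left 0 calls in the list. Shh, the ligand, measured 9.36, 9.45 and 8.53 in mutants, against 9.01, 8.33 and 8.22 in controls, and the groups overlapped (adjusted p 0.222). Of 15 retinoic acid genes, Rara, a nuclear receptor for retinoic acid, fell. It measured 8.12, 8.13 and 8.003 in mutants, against 8.54, 8.63 and 8.73 in controls, and no array broke the separation (-0.55 ± 0.0851, adjusted p 0.00183). Of 22 BMP genes, Bambi, a pseudoreceptor that dampens BMP and TGF-beta signals, rose. It measured 10.58, 10.32 and 9.59 in mutants, against 9.60, 9.34 and 9.16 in controls, where mutant replicate 3 lay within the range of the controls (0.79 ± 0.188, adjusted p 0.0176), and without mutant replicate 1 it did not pass (0.0829). Of 23 axon guidance genes, Robo2 rose by 0.81 and Sema3e and Plxna2 fell, with differences of -0.72 and -0.29. Of these Robo2 alone was called without mutant replicate 1, where the adjusted p was 0.0553 for Sema3e and 0.134 for Plxna2.

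Among regional identity genes few passed, beside 3.02% of all genes called higher and 4.06% called lower. Of 24 palate genes, Sim2 and Meox2 fell, and the median difference was 0.23. Meox2, a homeobox gene of palatal mesenchyme, measured 10.03, 10.77 and 11.23 in mutants, against 11.34, 11.70 and 12.02 in controls. The groups were apart by a small margin, and without mutant replicate 1 the difference of -1.01 became -0.69 and did not pass (limma adjusted p 0.191). Of 16 maxillary identity genes, Tfap2a, a transcription factor of neural crest and face, rose by 0.47 ± 0.134 (adjusted p 0.0432), and without mutant replicate 1 it did not pass (0.43, adjusted p 0.122). Barx1, a homeobox gene of jaw mesenchyme and molar teeth, measured 10.70, 10.97 and 11.60 in mutants, against 11.69, 11.77 and 11.90 in controls. It was lower on every mutant array and did not pass (adjusted p 0.0805).

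Of 12 mandibular identity genes Cited1 alone was called. With mutant replicate 1 left out, 3 of them were called lower, with Dlx5 at -0.66 instead of -0.40 (limma adjusted p 0.0350) and Dlx6 at -0.77 instead of -0.45 (0.0395). Of 22 tooth genes none was called. Of 21 neural crest mesenchyme genes, 19 had a difference above 0, beside 52.8% of all genes, with a median of 0.26. Pdgfrb, Snai1 and Tfap2a rose. Pdgfrb, a receptor of mesenchyme and pericytes, measured 12.56, 12.43 and 12.64 in mutants, against 12.27, 12.25 and 12.08 in controls, without overlap. It was the 1 gene of the list still called without mutant replicate 1. None of 8 frontonasal and distal jaw genes passed, and their median of 0.35 was 0.02 without mutant replicate 1. Alx1, a homeobox gene of that territory, measured 12.27, 9.99 and 10.50 in mutants, against 9.29, 8.99 and 10.13 in controls (adjusted p 0.130 in limma).

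Genes of other tissues showed how far the dissected samples differed. None of 24 cartilage genes was called, and their median difference from the control mean was 2.38 in mutant replicate 1, 0.05 in replicate 2 and -0.01 in replicate 3. Cnmd, which encodes the cartilage protein chondromodulin, measured 12.76, 7.50 and 6.98 in mutants, against 7.85, 6.81 and 5.96 in controls. Col9a1, a cartilage collagen chain, measured 13.22, 9.51 and 9.36 in mutants, against 8.96, 8.97 and 9.30 in controls. Mutant replicate 1 alone was far above the rest in both. For 18 sensory neuron genes, none called, the medians were 1.55, 0.03 and 0.03 in mutant replicates 1 to 3. For 9 olfactory and nasal epithelium genes, none called, they were 0.65, -0.17 and -0.29. The part of these tissues in the other differences was not tested.

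None of 34 skeletal muscle genes passed, although 31 of them were below the controls on average, beside 47.2% of all genes. Acta1, the skeletal actin gene, measured 9.82, 11.30 and 11.69 in mutants, against 12.05, 12.16 and 12.38 in controls. Tnnc2, a troponin of fast fibres, measured 9.03, 10.45 and 10.87 in mutants, against 11.26, 11.48 and 11.78 in controls. Every mutant array was below every control for both, and replicate 1 was lowest. The median of the list was -1.60, -0.58 and 0.02 in mutant replicates 1 to 3, and the adjusted p from limma was 0.0766 for Acta1 and 0.102 for Tnnc2.

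Of 27 macrophage and myeloid genes, 7 fell and none rose, beside 4.06% of all genes called lower, with a median difference of -0.34. Mutant replicate 1 was the lowest of the 6 arrays for 20 of the 27. Lyz1, Aif1, Tyrobp and Ccr2 joined Clec4a3, Lyz2 and Tlr1. With mutant replicate 1 left out, Aif1 passed and Lyz1 did not (limma adjusted p 0.046 and 0.0915). Aif1, a calcium-binding protein gene of macrophages, measured 7.62, 7.88 and 7.59 in mutants, against 8.31, 8.15 and 8.34 in controls. The groups did not overlap for 13 of the 27, all lower in mutants, beside 11.8% of all genes. Without mutant replicate 1, 3 were called and the median was -0.25, and with mutant replicate 2 as the only mutant 1 was called and the median was -0.36. None of 13 red blood cell genes passed (median -0.16). Hbb-bh1, an embryonic globin gene, measured 11.58, 11.14 and 11.03 in mutants, against 11.69, 11.77 and 12.41 in controls (limma adjusted p 0.157).

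The counts in the next lists stand beside 3.02% of all genes called higher and 4.06% called lower. Of 25 endothelial genes, Mmrn2, a matrix protein gene of endothelium, rose. It measured 9.24, 9.25 and 9.51 in mutants, against 8.95, 8.75 and 8.77 in controls (0.51 ± 0.0948, limma adjusted p 0.00601). Pecam1 and Cldn5, a pair of junction genes of the same cells, differed by -0.41 and -0.44 and missed the threshold (adjusted p 0.0573 and 0.0540). Of 18 bone genes, Tnfrsf11b and Sost rose. Sost, which encodes sclerostin, the osteocyte inhibitor of bone formation, measured 6.56, 6.32 and 6.28 in mutants, against 5.67, 5.54 and 5.56 in controls, and all its controls lay below the 40th percentile of all values, 6.30, which 2 of the 3 mutant arrays exceeded. Tnfsf11, the RANKL gene that osteoprotegerin opposes, measured 6.12, 7.02 and 5.39 in mutants, against 7.74, 6.93 and 6.97 in controls (adjusted p 0.0505). None of 27 epithelial, 13 Schwann cell or 8 osteoclast genes passed, and of 12 hair follicle genes Sox21 and Prdm1 rose. Prdm1, a transcriptional repressor gene, measured 9.08, 8.95 and 8.61 in mutants, against 8.44, 7.89 and 7.67 in controls.

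**Figure D4:**
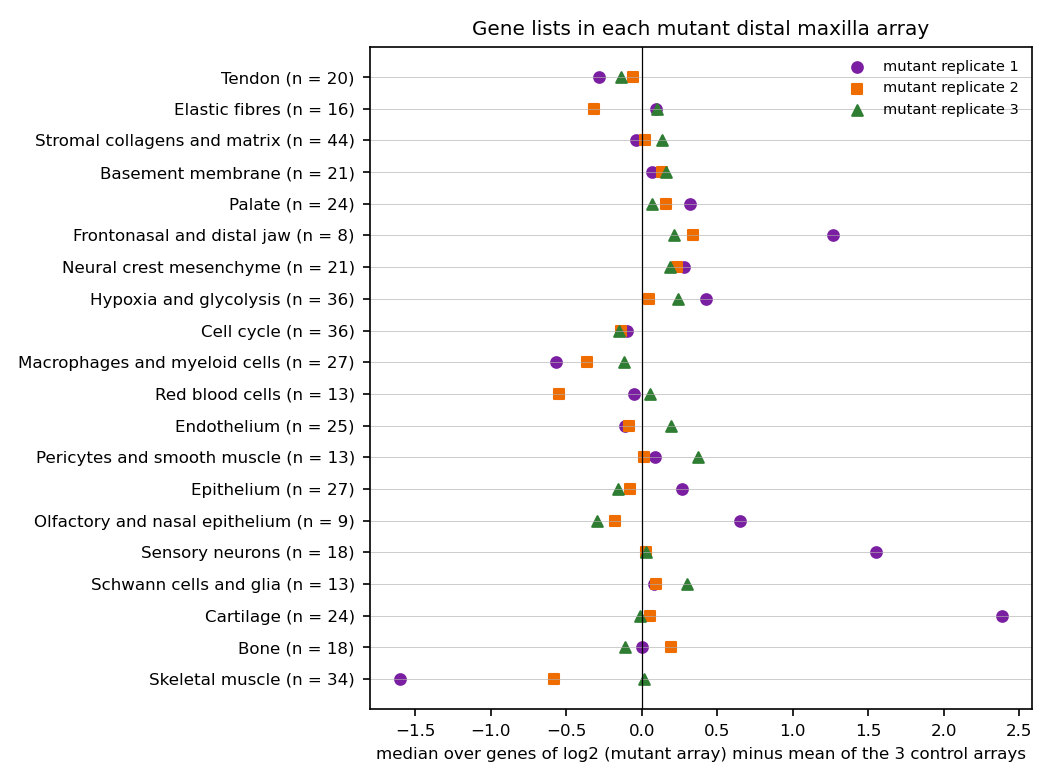
Median over each gene list of the log2 value of 1 mutant distal maxilla array minus the mean of the 3 control arrays, with 1 symbol per mutant array. Replicate 1 reaches 2.38 for cartilage, 1.55 for sensory neurons and -1.60 for skeletal muscle, where replicates 2 and 3 lie between -0.58 and 0.05.

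Of 36 cell cycle genes tested, 8 fell and 28 did not pass, beside 4.06% of all genes called lower. The median difference was -0.14. Pcna, the sliding clamp of DNA replication, measured 13.58, 13.58 and 13.48 in mutants, against 13.80, 13.79 and 13.77 in controls. Ccnb2, a mitotic cyclin gene, measured 11.41, 11.75 and 11.41 in mutants, against 11.87, 11.88 and 11.90 in controls. Both were lower on all mutant arrays, with differences of -0.24 for Pcna and -0.36 for Ccnb2. For Ccnb2 mutant replicates 1 and 3, those with the raised Gapdh difference, were the lowest. Birc5, Cenpa, Bub1, Rrm1, Mcm6 and Cenpe fell, with differences of -0.21 to -0.34. Ccnb2 and Cenpa were among those that did not pass without mutant replicate 1 (limma adjusted p 0.0524 and 0.0849). Without mutant replicate 1, 2 of the 8 were called, and without replicates 1 and 3 none was, while the median of the list stayed at -0.15 and -0.14.

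Of 36 hypoxia and glycolysis genes tested, 7 rose and 29 did not pass, beside 3.02% of all genes called higher. A difference above 0 was found in 33 of them, beside 52.8% of all genes, with a median of 0.24. Vegfa, the vascular growth factor gene, measured 9.93, 9.77 and 9.75 in mutants, against 9.46, 9.35 and 9.26 in controls. Its difference was 0.46 ± 0.0902 (limma adjusted p 0.00698), and a dimmer probe set differed by -0.10. Pdk1, a kinase that turns glucose carbon away from the mitochondria, measured 11.32, 11.62 and 11.53 in mutants, against 10.84, 10.92 and 11.05 in controls. Pfkfb3, an activator of glycolysis, Ddit4, an inhibitor of mTORC1, Adm, Kdm3a and Ndufa4l2 were the other calls, with rises of 0.29 to 0.60. Pfkfb3, Ddit4 and Ndufa4l2 did not pass without mutant replicate 1 (limma adjusted p 0.0909, 0.1855 and 0.159). Mutant replicate 1 was the highest of the 6 arrays for 27 of the 36 genes. The median was 0.43, 0.05 and 0.24 in mutant replicates 1 to 3, beside Gapdh 3' minus 5' differences of 0.65, 0.04 and 0.77. Without replicate 1, 3 were called, and without replicates 1 and 3 none was. The part of RNA quality and of replicate 1 in these differences was not tested.

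The promoters of Pfkfb3 and Ddit4 are shown because both genes were called higher in the main fit and both windows hold ACGTG. These letters are the core of the hypoxia response element, were searched on both strands and are printed in capitals. Neither gene passed without mutant replicate 1. The windows are as above (RefSeq, GRCm38.p6), at chr2:11553880-11554179 for Pfkfb3 and chr10:59951721-59952020 for Ddit4, both on the minus strand. For Pfkfb3 this is the first of 2 windows.
Pfkfb3: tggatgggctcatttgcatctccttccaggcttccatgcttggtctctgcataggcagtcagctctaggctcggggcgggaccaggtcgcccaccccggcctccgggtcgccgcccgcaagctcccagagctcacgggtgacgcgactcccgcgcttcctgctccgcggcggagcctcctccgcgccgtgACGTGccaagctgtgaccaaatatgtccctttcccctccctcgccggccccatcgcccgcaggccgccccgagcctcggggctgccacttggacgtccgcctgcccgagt
Ddit4: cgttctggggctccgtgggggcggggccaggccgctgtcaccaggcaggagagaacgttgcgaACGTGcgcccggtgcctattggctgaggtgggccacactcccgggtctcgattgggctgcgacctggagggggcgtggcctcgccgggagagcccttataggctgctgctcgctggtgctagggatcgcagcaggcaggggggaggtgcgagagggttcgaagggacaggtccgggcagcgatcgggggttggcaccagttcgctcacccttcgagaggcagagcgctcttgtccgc
Of 33 genes of the list with a promoter in the table, 19 (57.6%) held the motif, compared with 25.0% of all promoters of genes tested, and of 6 called genes of the list 2 did. Over all called genes the share was 26.2% of those higher and 26.7% of those lower.

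Other metabolic and stress lists held single calls or a few, beside 3.02% of all genes called higher and 4.06% called lower. Of 18 lipid storage and fat cell genes, Ebf1, Cebpb and Zfp423, which encode transcription factors of early fat cell commitment, rose. Cebpb measured 11.28, 11.39 and 10.92 in mutants, against 10.80, 10.55 and 10.24 in controls, and Ebf1 measured 11.47, 11.71 and 11.54 in mutants, against 11.27, 10.90 and 11.04 in controls. Neither overlapped. Without mutant replicate 1 Ebf1 passed (0.55, limma adjusted p 0.0168), and Cebpb and Zfp423 did not (0.0514 and 0.0955). Fabp4, a fatty acid carrier of fat cells and macrophages, measured 4.45, 4.48 and 4.79 in mutants, against 5.36, 5.59 and 6.62 in controls, below the 40th percentile on most of these arrays (adjusted p 0.118). Of 19 cholesterol synthesis genes Fdps fell by 0.60, of 21 heat shock and unfolded protein genes Pdia6 fell by 0.39, and of 21 immediate early genes Ier3 rose by 0.42. None of these 3 passed without mutant replicate 1. Of 13 pericyte genes Pdgfrb and Ndufa4l2 rose, and Ndufa4l2 was called in 0 of the 6 fits with 1 array left out. No gene of the p53 target, interferon, Hox, eye, brain or sex-linked lists was called.

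The direction of the called genes was largely shared by the other 3 regions. Of the 980, 961 (98.1%) had the same sign in proximal maxilla, 950 (96.9%) in distal mandible and 952 (97.1%) in proximal mandible, beside 77.2%, 74.4% and 76.2% of all genes. The sources used here do not say whether same-numbered arrays of different regions came from the same embryos, and this was not tested. Same-numbered arrays of a genotype had the same pattern of high or low Xist and Y-linked RNA in all 4 regions. The estimated correlation within such sets of arrays was 0.40, so the regions cannot be counted as independent. Of the 980, 412 (42.0%) were also called in the same direction in proximal maxilla, which is 52.2% of the 789 calls there. In distal mandible 92 were (9.4%, and 74.2% of its 124 calls), and in proximal mandible 374 were (38.2%, and 50.4% of its 742 calls). None was called in the opposite direction in any of these regions, and 433 were called in distal maxilla alone, which does not show that their effects differed.

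Tests of the difference itself called 0 genes in limma against proximal maxilla, distal mandible and the mean of the other 3 regions, with 395, 421 and 377 genes at an unadjusted p under 0.05. Fgfr1 had the smallest p against proximal maxilla and against the mean of the others. Its effect was 0.59 in distal maxilla, 0.02 in proximal maxilla, 0.36 in distal mandible and 0.19 in proximal mandible, and the difference from proximal maxilla was 0.56 ± 0.0984 (adjusted p 0.237). Hpca, a neuronal calcium sensor gene, had the smallest p in the other direction, with -0.13 in distal maxilla and 1.13 in proximal maxilla (adjusted p of the difference 0.857). Against distal mandible the smallest p belonged to Gas2, with effects of -1.11 in distal maxilla and -0.03 there, and to Usp18, an interferon-induced protease gene, with 0.39 and -1.01 (adjusted p of both differences 0.909). With the set of same-numbered arrays as a random block in limma, the Gas2 difference of -1.08 was called (adjusted p 0.0374). Plxna2, a semaphorin receptor gene, fell in distal maxilla and had differences of 0.15, 0.07 and 0.19 in proximal maxilla, distal mandible and proximal mandible (adjusted p of the difference from their mean 1).

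The named changes of distal maxilla had these values in the other regions, where no difference between regional effects was called in the main fit. Fbln5 was lower in all 4 regions, by -1.16 in distal maxilla, -1.23 in proximal maxilla, -0.73 in distal mandible and -1.78 in proximal mandible, and passed in each. H2az2, Clec4a3 and Lyz2 also passed in each. The 27 macrophage and myeloid genes had a median of -0.34 in distal maxilla but 0.17 in proximal maxilla. Their median was -0.21 in distal mandible and -0.28 in proximal mandible. Vit, Epha5, Scx and Tgfb2 passed in distal maxilla, proximal maxilla and proximal mandible, and their distal mandible differences of 0.87, 0.66, -0.57 and 0.47 did not. Sim2 differed by -1.87 in distal maxilla and -1.40 in proximal maxilla (adjusted p 0.0647 in limma), and by 0.21 and -0.32 in distal and proximal mandible. Fstl5 differed by 3.06 in distal maxilla and 2.44 in proximal maxilla, and by -0.03 and 0.63 in the mandible. Over all 4 regions 917 of the 980 (93.6%) kept 1 sign, beside 54.4% of all genes.

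**Figure D5:**
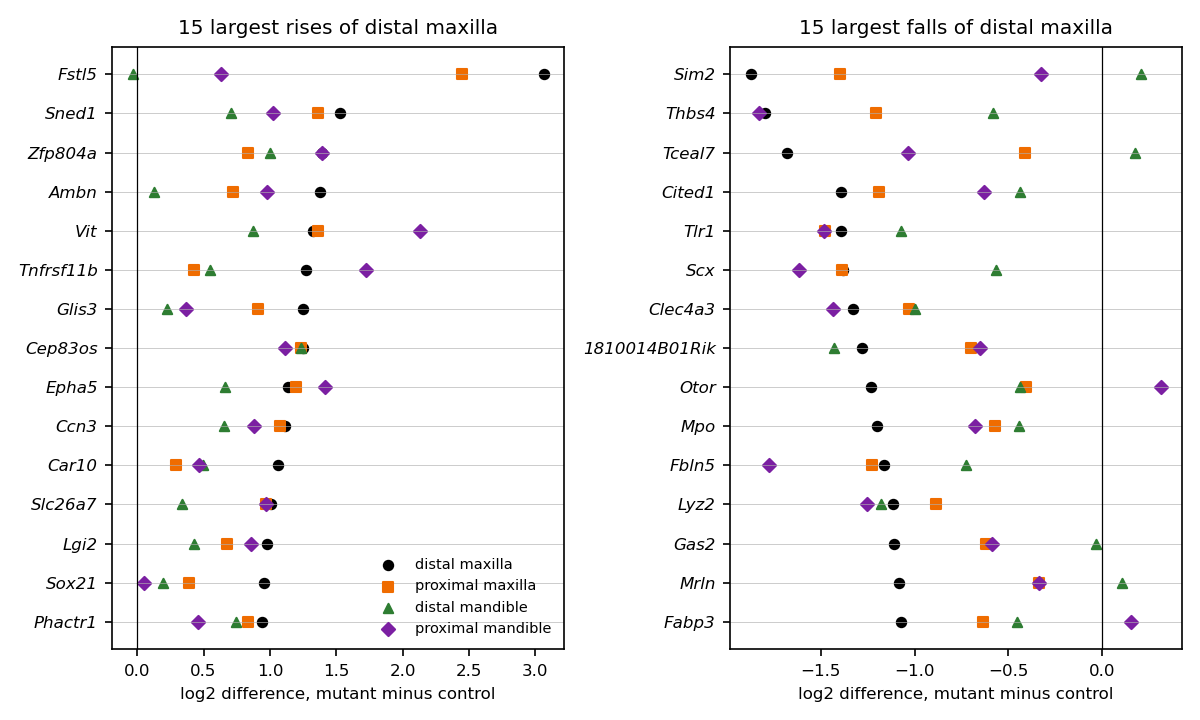
Log2 difference between mutant and control in each of the 4 regions for the 15 largest rises and 15 largest falls of distal maxilla, with 1 symbol per region. Vit, Scx and Fbln5 lie on the same side of 0 in all regions, whereas Sim2, Tceal7 and Mrln lie above 0 in distal mandible.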

How the data were processed

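The deposited series matrix holds log2 intensities of 45101 probe sets on 24 arrays, computed by the authors with RMA (source: the submitters' processing notes). No source used here says whether the arrays were normalised jointly. Array medians in distal maxilla lay between 7.03 and 7.06. Probe sets were named from the platform annotation, in which 34958 had 1 gene symbol, 932 several and 9211 none, and 34754 were updated through RefSeq gene identifiers (GRCm38.p6). For each of 18194 genes the probe set brightest on average across the 24 arrays was taken, and 13850 were kept because they lay above an array's 40th percentile on at least 3 arrays. limma 3.58.1 in R 4.3.3 fitted 8 group means to the 24 arrays, so that all groups share 1 estimate of spread with 16 residual degrees of freedom. Distal maxilla mutants were compared with controls without covariates, p-values were adjusted over all genes tested (Benjamini-Hochberg), and an adjusted p under 0.05 was called. The same model gave the differences between regional effects. The fit was tested on simulated data.

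Genes were named by rule: Tgfbr2, the 15 largest rises and 15 largest falls among called genes whose arrays did not overlap, up to 4 genes with the smallest p in each list, and the smallest p in each direction in each difference of regional effects. Other probe sets of a described gene that moved the opposite way are given beside it where their mean lay above the 40th percentile level, and dimmer ones are not given. The comparison and the gene lists were chosen with earlier results of these data known, so no pattern of a list is independent support. No 2 arrays held identical values. Alternatives covered the samples fitted, probe set choice, filter, normalisation, variance trend, blocks, covariates and each array left out. No dose, depth or count applies to arrays.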

Additional observations from a re-analysis of the deposited data

How the results depend on the processing

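The count of called genes in distal maxilla, 980 with 418 higher and 562 lower, depended on the samples and covariates. It was 0, with 0 higher and 0 lower, when only the 6 distal maxilla arrays were fitted, and 3583, with 1380 higher and 2203 lower, with the Gapdh 3' minus 5' difference as a covariate. With the mean of all probe sets of a gene it was 578, with 154 higher and 424 lower, a share of higher calls of 26.6% compared with 42.7%. Leaving out 1 array in turn gave 289 to 1692 called, 108 to 686 higher and 181 to 1006 lower. Without mutant replicates 1 and 3, an alternative chosen after seeing the data, 71 were called, 43 higher and 28 lower. A random block of sets gave 905, no filter 775, a 60th percentile filter 1092, quantile normalisation 1025, a variance trend 1072 and a Y-linked covariate 734. With the mean of all probe sets Itgav differed by -0.0255 and Col12a1 by -0.0607, the reverse of their representative probe sets. The cause was not tested. The difference from distal mandible called 1 gene, Gas2, with the set as a random block. With the replicate number as a replicate block, 1488 genes were called, 666 higher and 822 lower. Same-numbered mutant and control arrays correlated in their deviations at 0.22, 0.05 and 0.40. For mutant replicates 1 and 3 the same-numbered control correlated highest, and for mutant replicate 2 control replicate 1 did (0.105). The numbers were not taken as pairs in the main fit, and whether they are pairs was not tested.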

Other observations

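Several gene families were chosen by symbol after their values were seen and are given as a description only, beside 4.06% of all genes called lower and 3.02% called higher in mutant distal maxilla. Of 76 mitochondrial ribosomal protein genes, 25 were called lower and 1 higher, with a median of -0.22. Of 33 NADH dehydrogenase subunit genes, 12 were called lower and 0 higher by limma, with a median of -0.17. Of 38 proteasome genes 9 were lower and 1 higher, and of 20 centromere protein genes 8 were lower. Of 8 augmin subunit genes, which help to build the mitotic spindle, 4 were lower. All 8 had a difference below 0, beside 47.2% of all genes. Of 10 Lsm genes, whose products act in RNA splicing and decay, 7 were lower, with a median of -0.26.

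The medians followed the arrays unevenly. The proteasome genes lay at -0.26, -0.01 and -0.30 in mutant replicates 1 to 3 and the mitochondrial ribosomal protein genes at -0.27, -0.11 and -0.29, beside Gapdh 3' minus 5' differences of 0.65, 0.04 and 0.77. The Lsm genes lay at -0.27, -0.22 and -0.34. The part of RNA quality in these values was not tested.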
